A study of Homo sapiens with 4 samples.

Results

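Complex I (NADH:ubiquinone oxidoreductase) of the mitochondrial respiratory chain was described in the RNA sequencing data through the genes that encode its subunits and assembly factors. The genes were chosen by symbol alone, as every symbol that begins with NDUF, together with ECSIT, ACAD9, TMEM126B, NUBPL, FOXRED1 and TIMMDC1. This rule found 57 of the 26506 symbols in the deposited tables. Of the 57, 50 encode a subunit (37) or an assembly factor (13) of complex I, 2 are NDUFA4 and NDUFA4L2, and 5 are antisense, read-through or pseudogene entries. The samples were HeyC2 and SKOV3, established lines of ovarian cancer, each transfected with 3 μg of pCMV6/TET1 or of empty plasmid (control) and kept in 400 μg/ml Geneticin. TET1, driven here by the CMV promoter of the plasmid, is a dioxygenase that oxidizes methylated cytosine and so starts DNA demethylation. Each of the 4 conditions was sequenced as 1 library. Differences between TET1 and control cells within a line therefore had no replicate check and were not tested. Whether the selected cells were a pool or a clone was not given in the sources used here.

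Complex I takes electrons from NADH and passes them through a flavin and a chain of iron-sulfur clusters to ubiquinone, and uses the energy released to pump protons across the inner mitochondrial membrane. It is L-shaped, with a hydrophilic (peripheral) arm in the matrix that carries the electron path and a membrane arm that pumps. The core subunits do the chemistry, and those of the membrane arm are encoded by mitochondrial DNA. The accessory subunits surround the core and are needed for stability, and assembly factors join modules to each other without staying in the finished enzyme. The symbols of the mitochondrially encoded subunits were matched in the tables in 0 cases, and these subunits are not analysed here.

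Because TET1 acts on cytosines in CpG context, the 250 bases before the transcription start of 4 of the genes are shown, with each CpG in capitals. NDUFA13 and NDUFAF3 were the complex I genes whose promoters the study followed by methylation, NDUFA3 was the member with the largest gap between the cell lines, and NDUFA9 was the member with the lowest TET1 value relative to control in HeyC2. The sequences are RefSeq's on GRCh38.p14, 5′ to 3′ on the plus strand, on which all 4 genes lie. RefSeq lists 4 starts for NDUFAF3, and the first and the last are shown.
NDUFA13: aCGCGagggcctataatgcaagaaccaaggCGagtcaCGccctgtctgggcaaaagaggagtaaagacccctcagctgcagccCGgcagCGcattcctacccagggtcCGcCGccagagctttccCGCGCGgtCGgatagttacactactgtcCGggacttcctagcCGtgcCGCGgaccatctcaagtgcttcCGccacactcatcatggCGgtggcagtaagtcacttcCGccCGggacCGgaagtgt
NDUFAF3 (first start): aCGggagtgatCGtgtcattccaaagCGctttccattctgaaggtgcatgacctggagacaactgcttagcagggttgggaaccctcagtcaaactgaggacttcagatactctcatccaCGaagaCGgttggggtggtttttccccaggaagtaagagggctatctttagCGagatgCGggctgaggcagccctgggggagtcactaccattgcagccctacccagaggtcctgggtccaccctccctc
NDUFAF3 (last start): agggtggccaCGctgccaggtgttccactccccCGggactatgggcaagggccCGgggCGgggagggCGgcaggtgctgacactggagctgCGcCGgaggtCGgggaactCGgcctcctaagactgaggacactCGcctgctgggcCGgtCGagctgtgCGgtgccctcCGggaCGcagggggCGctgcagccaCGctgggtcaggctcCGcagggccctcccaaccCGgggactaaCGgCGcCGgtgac
NDUFA3: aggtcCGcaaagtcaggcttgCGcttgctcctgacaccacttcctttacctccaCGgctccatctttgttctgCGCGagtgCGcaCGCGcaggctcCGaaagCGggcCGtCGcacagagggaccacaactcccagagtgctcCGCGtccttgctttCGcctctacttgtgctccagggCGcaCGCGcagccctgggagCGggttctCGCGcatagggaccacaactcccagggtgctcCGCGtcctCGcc
NDUFA9: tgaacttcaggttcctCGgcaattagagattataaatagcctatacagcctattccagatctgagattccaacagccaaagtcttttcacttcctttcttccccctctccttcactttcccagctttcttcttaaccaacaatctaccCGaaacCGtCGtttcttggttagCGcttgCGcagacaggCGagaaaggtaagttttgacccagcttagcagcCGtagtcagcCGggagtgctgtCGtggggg
The stretches lie at chr19:19515975-19516224 (NDUFA13), chr3:49020202-49020451 and chr3:49021871-49022120 (NDUFAF3), chr19:54102605-54102854 (NDUFA3) and chr12:4648864-4649113 (NDUFA9). They hold 21 CpG for NDUFA13, 7 and 22 CpG for the first and last start of NDUFAF3, 24 for NDUFA3 and 10 for NDUFA9. The CpG-poor first start of NDUFAF3 thus lies upstream of a CpG-rich one. All gene coordinates given hereafter are on GRCh37, the build of hg19 to which the reads were aligned.

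The values are FPKM, fragment numbers scaled to transcript length and to the mapped fragments of the library. GAPDH, a glycolytic enzyme, had the same FPKM in TET1 and control in each line (5417.35 in HeyC2 and 2248.44 in SKOV3), and all distinct TET1 values below 40 FPKM fell on multiples of 0.01 times 1 constant, 3.23 in HeyC2 and 1.35 in SKOV3. The TET1 columns had therefore been multiplied by these factors, and a change was read relative to the all-gene median of its line, which was a log2 change of 1.61 (3.05-fold) in HeyC2 and 0.59 (1.5-fold) in SKOV3 with 1 FPKM added to both values. TET1 itself stood at 0.20 and 1.68 FPKM in HeyC2 control and TET1 and at 0.43 and 2.42 FPKM in SKOV3, or 0.52 and 1.80 FPKM in the TET1 libraries before the scaling, higher in the TET1 library of each line, and the values do not separate plasmid from genomic transcripts. Depth, estimated from the spacing of the smallest values, was 6340000 to 7360000 fragments per library. Of the epithelial and ovarian markers, KRT8, KRT18, KRT7 and PAX8 were at 1 FPKM or more in all 4 libraries. The mesenchymal marker VIM was too, at 7496.18 FPKM in HeyC2 control and 1223.43 FPKM in SKOV3 control. KRT7 nevertheless stood at 289.68 and 3637.30 FPKM in HeyC2 control and TET1 and at 1537.20 and 29.55 FPKM in SKOV3, and KRT19 at 0.62 and 5.14 FPKM in HeyC2 and 255.14 and 0.62 FPKM in SKOV3, so these epithelial keratins differed between TET1 and control in opposite directions in the lines. Further, EPCAM (0.09 and 1.23 FPKM) and CDH1 (0 and 0 FPKM) were low or at 0 in the HeyC2 libraries and WT1 and MUC16 stayed under 1 FPKM in all 4. The leukocyte genes PTPRC and CD3E did not exceed 0.38 FPKM, nor did the endothelial gene PECAM1 exceed 0.10 FPKM. CDH5, also an endothelial marker, stood at 18.85 and 306.07 FPKM in HeyC2 control and TET1. The part of these markers in the results was not tested.

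Complex I transcripts were abundant in all 4 libraries. The median level of the 37 subunits was 83.2 FPKM in HeyC2 control, 67.0 in HeyC2 TET1, 69.4 in SKOV3 control and 74.8 in SKOV3 TET1, once the TET1 values were divided by the scale factor. This placed the median subunit above 92.1% to 94.3% of the genes detected in a library. The 13 assembly factors were lower, with medians of 8.19, 9.78, 18.6 and 13.5 FPKM in the same order, a factor of 3.73 to 10.2 below the subunits of the same library. Together the 50 genes held 0.559% to 0.812% of the summed FPKM of a library. NDUFA13 (chromosome 19, 19626545 to 19639863), a membrane arm subunit also known as GRIM-19, had the highest level in each library. The lowest were assembly factors, NDUFAF5 in both HeyC2 libraries, NUBPL in SKOV3 control and NDUFAF6 in SKOV3 TET1, and the highest gene was 65.2 to 146 times the lowest. The order of the 50 levels was nearly kept between libraries, with Spearman rho across genes of 0.968 between the HeyC2 libraries, 0.982 between the SKOV3 libraries and 0.902 to 0.922 between lines, where genes within a library share its depth and processing.

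**Figure D1:**
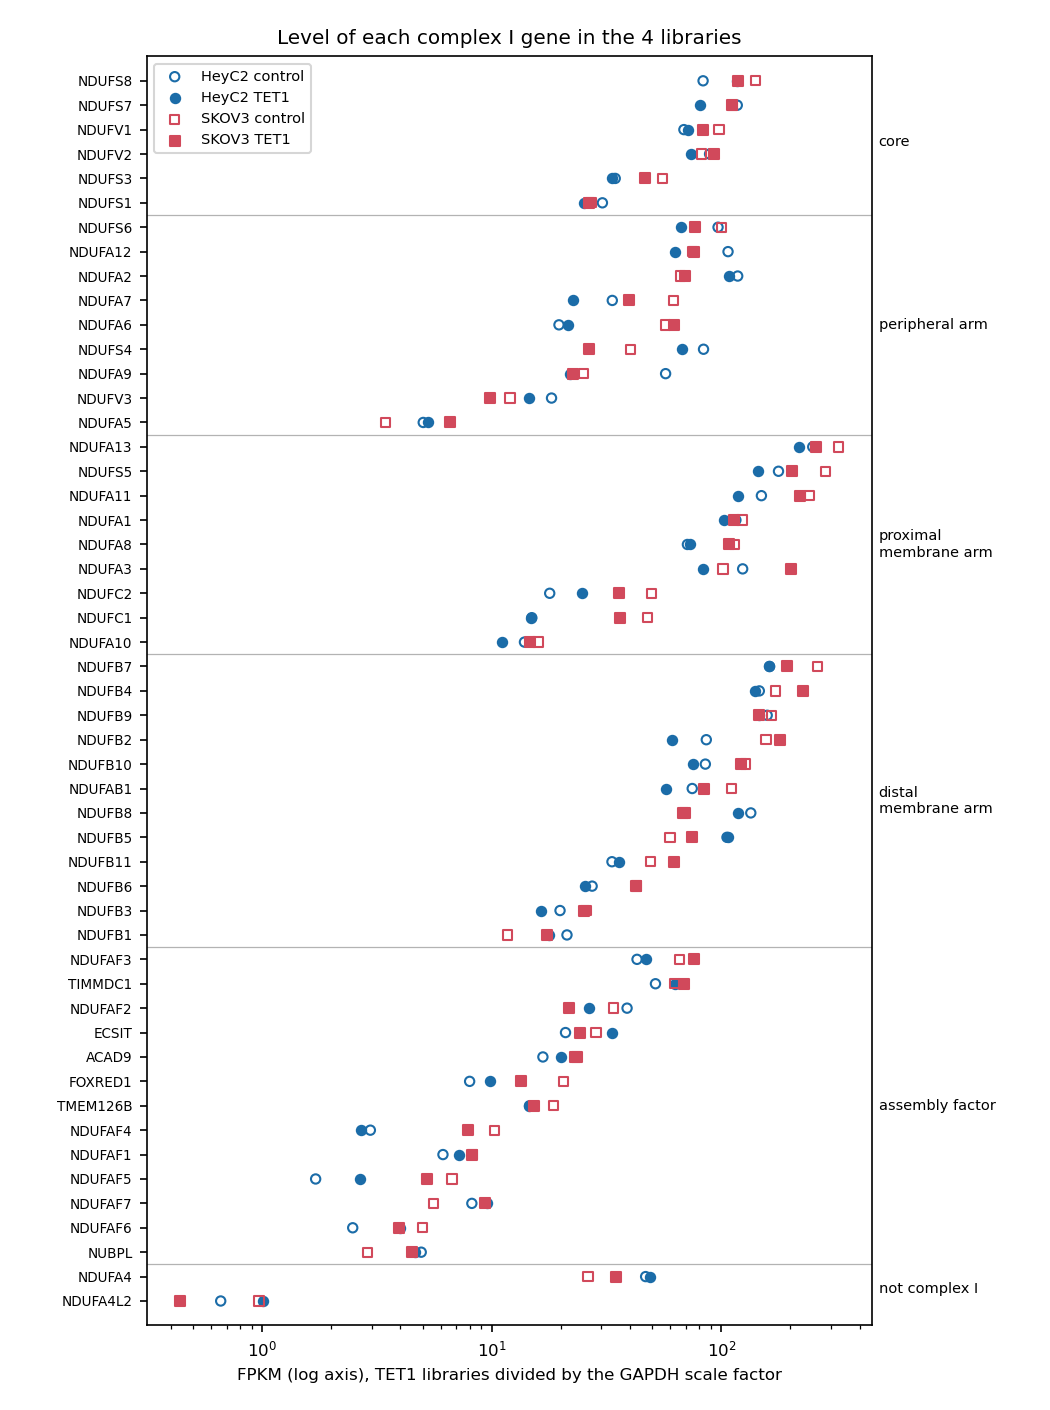
FPKM on a log axis of 51 genes (49 of complex I, NDUFA4 and NDUFA4L2) in the 4 libraries, HeyC2 as circles and SKOV3 as squares, controls open and TET1 filled, with TET1 values divided by the GAPDH scale factor and genes grouped by role. The subunits lie mostly right of the assembly factors, and NDUFA9 stands apart only in HeyC2 control.

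As deposited, nearly all complex I genes were higher in HeyC2 TET1 than in control, but so were nearly all other genes. Of the 54 members with a mean of at least 1 FPKM over the HeyC2 libraries, 53 were at least 1.5-fold higher, against 95.8% of all 12993 genes tested. In SKOV3, 14 of 53 members were at least 1.5-fold higher, against 50.2% of 13339 genes, and 12 of these 14 were complex I genes. Any increase at all was seen in 54 of 54 members in HeyC2 (98.8% of genes) and in 45 of 53 in SKOV3 (82.2%). In HeyC2, 0 members were at least 1.5-fold lower as deposited (0.5% of genes), and in SKOV3 this was so for 1, NDUFC2-KCTD14 (4.39%). The 14 members that passed this fold in both lines made up 26.4% of the 53 tested in both, against 46.2% of all genes. Before the scaling, 1 member (ECSIT) was at least 1.5-fold higher in HeyC2, against 14.5% of genes, and 4 were in SKOV3 (NDUFA3, NDUFA5, NDUFAF7 and NDUFA6-AS1), against 28.6%. At least 1.5-fold lower before the scaling were 2 members in HeyC2 (NDUFA9 and NDUFA12, against 7.4% of genes) and 3 in SKOV3 (NDUFA7, NDUFAF2 and NDUFC2-KCTD14, against 11.5%).

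Relative to the all-gene median and with 1 FPKM added, complex I as a list lay close to other genes in HeyC2 and below them in SKOV3. This order of the lines was not kept among genes of similar level, as given below. The 54 members had a median of -0.07 in HeyC2, with 31 below the all-gene median (57.4%), where 50% of all genes lie below by definition. In SKOV3 the 53 members had a median of -0.25 and 39 lay below (73.6%, against 50%). The members spread less than other genes, with an SD of 0.34 in HeyC2 and 0.39 in SKOV3, against 0.63 and 0.82 over all genes tested. The all-gene SD includes genes down to a mean of 1 FPKM, while most subunits are at a high level. The spread was not compared with that of genes of similar level. With 1 FPKM added, few reached 1.5-fold. In HeyC2, 1 member was that far above the median (ECSIT), against 13.0% of genes, and 2 were that far below (NDUFA9 and NDUFA12), against 12.9%. In SKOV3, 1 was above (NDUFA3), against 20.6%, and 8 were below (15.1%, against 17.9%), namely NDUFA7, NDUFAF2, NDUFS4, FOXRED1, NDUFS5, NDUFC2, NDUFB7 and the read-through entry NDUFC2-KCTD14.

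The counts depended on the settings. In HeyC2 the number of members 1.5-fold below was 7 of 54 with a pseudocount of 0.1 FPKM (12.6% of all genes), the added ones being NDUFA3, NDUFA7, NDUFAF2, NDUFS6 and NDUFS7, and in SKOV3 it was 13 of 53 (20.6% of all genes). When each gene was compared with the median of genes of similar level, the list median was -0.14 in HeyC2 and -0.07 in SKOV3. In that setting 36 of 54 members lay below in HeyC2 and 29 of 53 in SKOV3. With a pseudocount of 0.1 FPKM, 39 of 54 members lay below the all-gene median in HeyC2. The counting error of a gene's log2 change, given below in parentheses after the change, was estimated from fragment numbers. It covers the sampling of fragments only, not the spread between cultures. It is smaller for genes of many fragments, and shares by counting error were not matched for level. By more than 2 counting errors, 4 members lay above and 13 below the all-gene median in HeyC2, against 18.8% and 13.7% of genes, and 2 above and 22 below in SKOV3, against 20.2% and 26.2%.

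**Figure D2:**
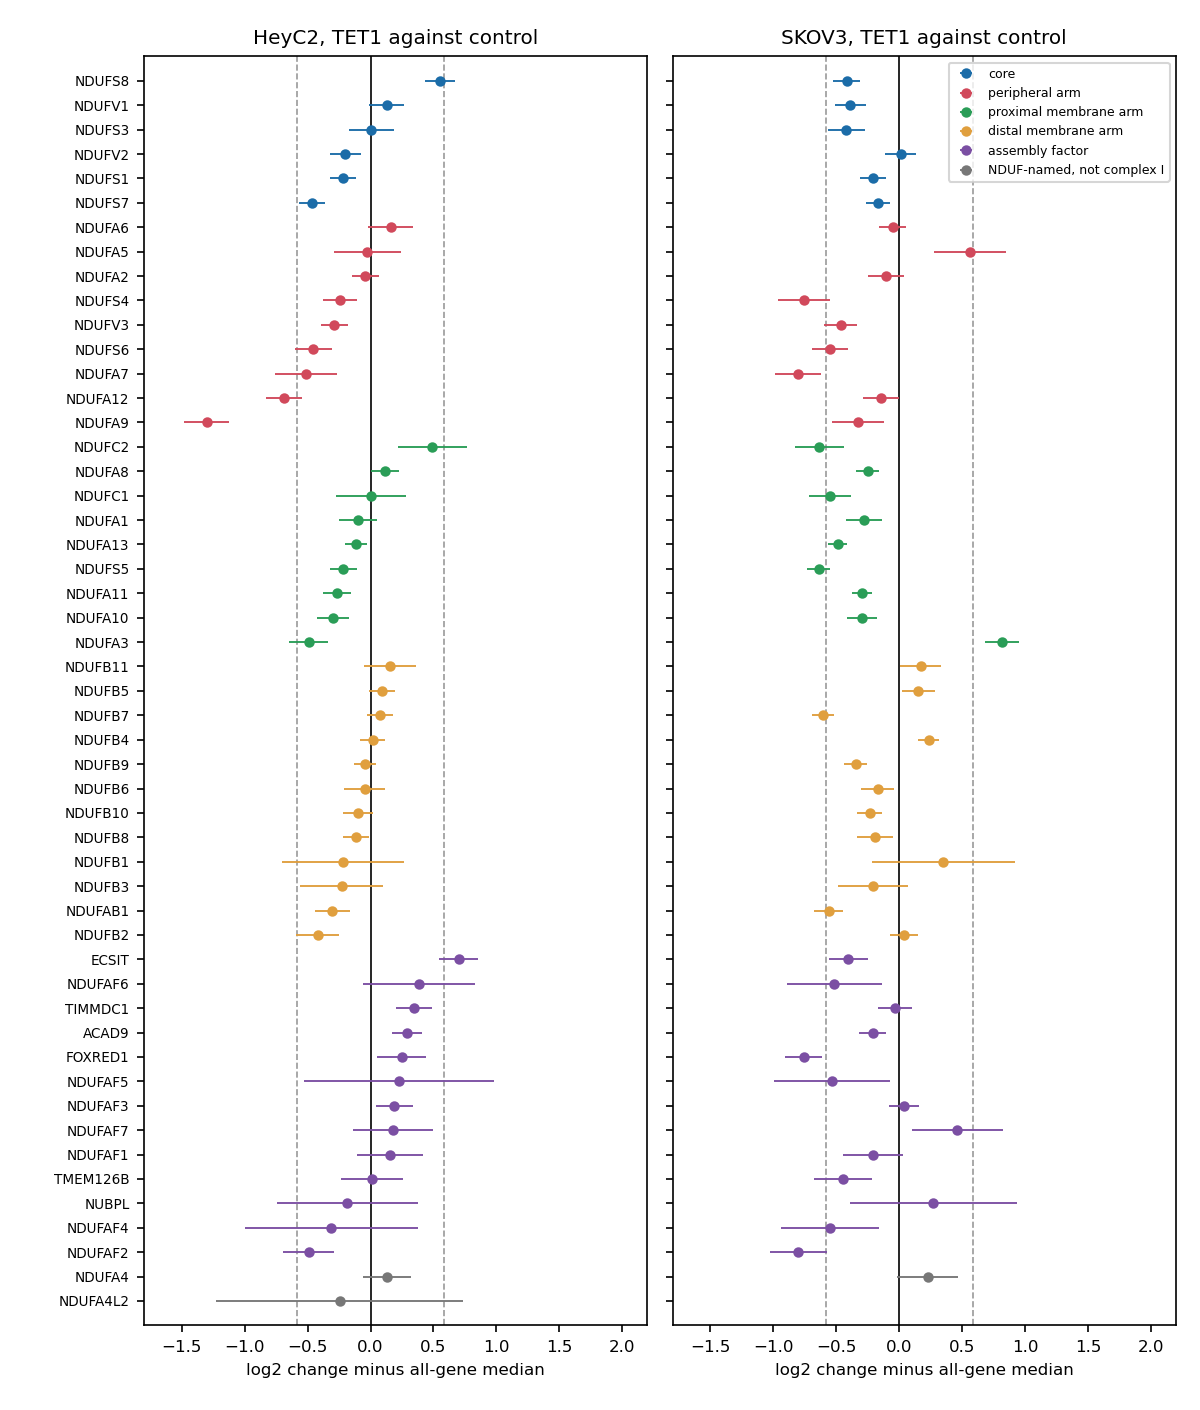
Log2 change of TET1 against control minus the all-gene median of the line, for 51 genes in HeyC2 (left) and SKOV3 (right, without NDUFA4L2), with bars of 1 counting error and dashed lines at 1.5-fold. Most points lie within the dashed lines, NDUFA9 is the lowest point in HeyC2 at -1.30, and more points lie left of 0 in SKOV3 than in HeyC2.

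The 7 nuclear-encoded core subunits, which form the electron path, were all within 1.5-fold of the all-gene median in both lines, with medians of 0.01 in HeyC2 and -0.21 in SKOV3. Most of all genes tested were within it too, with 13.0% at least 1.5-fold above and 12.9% below in HeyC2. In SKOV3 these shares were 20.6% and 17.9%. In HeyC2 the core subunits ran from -0.46 for NDUFS7 to 0.55 for NDUFS8, and in SKOV3 the lowest was NDUFS3 at -0.42. NDUFS8 (chromosome 11, 67798084 to 67804111), an iron-sulfur subunit that holds a pair of clusters, had 83.24 and 376.42 FPKM in HeyC2 control and TET1 and 140.56 and 158.30 FPKM in SKOV3. Its relative log2 change was 0.55 (counting error 0.12) in HeyC2 and -0.42 (0.10) in SKOV3, so it was above the all-gene median in HeyC2 and below it in SKOV3. NDUFS7, which holds the last cluster before ubiquinone, had 117.28 and 260.92 FPKM in HeyC2 and 111.48 and 149.46 FPKM in SKOV3, which is -0.46 and -0.17 relative to all genes.
NDUFV1, which binds NADH and the flavin, had 68.67 and 231.45 FPKM in HeyC2 and 97.56 and 112.17 FPKM in SKOV3, and relative changes of 0.13 and -0.39. Its partner NDUFV2 had relative changes of -0.20 and 0.01, and NDUFS1, the largest core subunit, -0.22 and -0.21. NDUFS3 was at 0.01 and -0.42. In all, 3 of 7 core genes in HeyC2 and 5 of 7 in SKOV3 lay below the all-gene median.

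The 9 accessory subunits of the peripheral arm had medians of -0.29 in HeyC2 and -0.32 in SKOV3, and 8 of 9 lay below the all-gene median in each line. The exceptions were NDUFA6 in HeyC2 (0.16) and NDUFA5 in SKOV3 (0.56). NDUFA9 (chromosome 12, 4758261 to 4803483), which sits at the junction of both arms, had 57.16 and 70.93 FPKM in HeyC2 control and TET1 and 25.07 and 30.33 FPKM in SKOV3. Divided by the scale factor, the TET1 values were 21.9 FPKM in HeyC2 and 22.5 FPKM in SKOV3, so 3 libraries lay between 21.9 and 25.1 FPKM and HeyC2 control was higher, although the tables of the lines were made separately. Its relative log2 change was -1.30 (counting error 0.18) in HeyC2, or 2.47-fold lower than the all-gene median, and -0.32 (0.21) in SKOV3.
NDUFA9 is the only member on the short arm of chromosome 12, where GAPDH also lies. Of the 169 genes of this arm tested in HeyC2, 150 lay below the all-gene median with an arm median of -0.71, and 28 were lower than NDUFA9. In the comparison of the control libraries, HeyC2 against SKOV3, the median of 159 genes of the arm was 0.88 and NDUFA9 was at 1.43, against 0.23 and 0.34 in the same comparison of the TET1 libraries before the scaling. The arm's part in the values of NDUFA9 was not tested.
NDUFA12 (chromosome 12, long arm, 95289073 to 95397524), a subunit of the matrix arm, had 106.90 and 203.28 FPKM in HeyC2 and 74.62 and 101.96 FPKM in SKOV3. Its relative change was -0.69 (0.14) in HeyC2 and -0.14 (0.15) in SKOV3. NDUFA7 was low in both lines, at 33.49 and 72.71 FPKM in HeyC2 and 61.79 and 53.17 FPKM in SKOV3, with relative changes of -0.51 (0.25) and -0.80 (0.18). NDUFS4, whose loss in people is a known cause of Leigh syndrome, had relative changes of -0.24 and -0.76 (0.21), and its FPKM in SKOV3 was 40.13 in control and 35.61 in TET1. NDUFS6, a zinc-binding subunit, was at -0.45 and -0.55. NDUFA5 was a low-level subunit, at 5.03 and 17.08 FPKM in HeyC2 and 3.45 and 8.88 FPKM in SKOV3, and its 0.56 in SKOV3 had a counting error of 0.29.

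The 9 accessory subunits of the proximal membrane arm had medians of -0.12 in HeyC2 and -0.30 in SKOV3, with 6 and 8 of 9 below the all-gene median. When each gene was compared with genes of similar level, the group medians were -0.21 in HeyC2 and -0.14 in SKOV3. NDUFA13, a promoter of which is shown above, had 249.97 and 704.39 FPKM in HeyC2 and 323.88 and 347.04 FPKM in SKOV3. The deposited fold of TET1 against control thus stayed below that of the median gene in each line, and the relative changes were -0.12 (counting error 0.09) in HeyC2 and -0.49 (0.08) in SKOV3. Against genes of similar level, NDUFA13 was at -0.21 in HeyC2 and -0.14 in SKOV3, so its SKOV3 value depended on this choice. NDUFA3 (chromosome 19, 54606036 to 54612564), a small membrane subunit, had 123.79 and 269.55 FPKM in HeyC2 and 101.75 and 271.34 FPKM in SKOV3. It was 1.41-fold below the all-gene median in HeyC2 (-0.49, counting error 0.15) and 1.76-fold above it in SKOV3 (0.82, counting error 0.13), the widest gap between lines of the 50 complex I genes.
NDUFC2 (chromosome 11, 77779343 to 77790908), also a membrane subunit, had the opposite order, with 17.88 and 79.92 FPKM in HeyC2 and 49.61 and 48.01 FPKM in SKOV3, and relative changes of 0.49 (0.27) and -0.63 (0.20). NDUFC2 overlaps the read-through entry NDUFC2-KCTD14, at 15.01 and 38.10 FPKM in HeyC2 and 7.50 and 4.32 FPKM in SKOV3, and reads of shared exons may have been divided between the pair. The sum of both was 32.89 and 118.02 FPKM in HeyC2 and 57.11 and 52.33 FPKM in SKOV3. NDUFS5 was at -0.22 and -0.64, and the other 5 subunits of the group (NDUFA1, NDUFA8, NDUFA10, NDUFA11 and NDUFC1) lay within 1.5-fold in both lines.

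The 12 genes of the distal membrane arm, NDUFB1 to NDUFB11 and NDUFAB1, were the tightest group in HeyC2, with an SD of 0.17, a median of -0.07 and a range from -0.42 (NDUFB2) to 0.16 (NDUFB11). In SKOV3 their median was -0.18, with an SD of 0.31 and a range from -0.61 (NDUFB7) to 0.35 (NDUFB1). NDUFB7 had 162.13 and 522.39 FPKM in HeyC2 and 262.82 and 259.41 FPKM in SKOV3, so its level as deposited was nearly the same in both SKOV3 libraries while the median gene was 1.5-fold higher. NDUFB1 rested on about 10 to 22 fragments per library, and its 0.35 in SKOV3 had a counting error of 0.57. NDUFAB1, the mitochondrial acyl carrier protein that also serves fatty acid and lipoate synthesis, was at -0.30 and -0.56. NDUFB4, NDUFB5 and NDUFB11 lay above the all-gene median in both lines, by 0.02 to 0.24. In HeyC2 each lay above by less than its counting error, at 0.02 (0.10), 0.09 (0.10) and 0.16 (0.21). With FPKM before the scaling, they were at -0.12, -0.04 and 0.04 in HeyC2.

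The median of the 13 assembly factors, though not each factor, lay on opposite sides of the all-gene median in the lines. In HeyC2, 10 of 13 were above the all-gene median, with a group median of 0.19. In SKOV3, 10 of 13 were below it, with a group median of -0.40. By more than 2 counting errors, only ECSIT, ACAD9 and TIMMDC1 were above in HeyC2, and NDUFAF2 was below. In SKOV3 only ECSIT, FOXRED1 and NDUFAF2 were that far below. Only NDUFAF3 and NDUFAF7 were above in both lines and only NDUFAF2 and NDUFAF4 were below in both. ECSIT (chromosome 19, 11616744 to 11639987), a scaffold of the MCIA assembly complex that is also an adaptor in innate immune signaling, had 20.95 and 107.96 FPKM in HeyC2 and 28.40 and 32.44 FPKM in SKOV3. It was 1.63-fold above the all-gene median in HeyC2 (0.70, counting error 0.15) and 1.32-fold below it in SKOV3 (-0.40, counting error 0.16).
ACAD9, an acyl-CoA dehydrogenase family protein of the same complex, had 16.70 and 65.04 FPKM in HeyC2 and 23.50 and 30.88 FPKM in SKOV3, with relative changes of 0.29 (0.12) and -0.21 (0.11). NDUFAF1 was at 0.15 and -0.21, TMEM126B at 0.01 and -0.45, and the membrane factor TIMMDC1 at 0.35 (0.14) and -0.03 (0.14). NDUFAF3 (chromosome 3, 49057892 to 49060928), which joins early to the ubiquinone module, had 42.92 and 151.82 FPKM in HeyC2 and 65.82 and 102.05 FPKM in SKOV3. Its relative changes, 0.19 (0.15) and 0.04 (0.12), were within 2 counting errors of the all-gene median in both lines.
FOXRED1, an oxidoreductase-like factor, had 8.01 and 31.63 FPKM in HeyC2 and 20.49 and 18.13 FPKM in SKOV3, and was at 0.25 (0.19) and -0.76 (0.15). NDUFAF2, a paralog of NDUFA12, had 38.84 and 85.42 FPKM in HeyC2 and 33.90 and 29.12 FPKM in SKOV3, and was low in both, at -0.49 (0.21) and -0.80 (0.23). NUBPL, which delivers iron-sulfur clusters, was at -0.19 and 0.27 with counting errors of 0.56 and 0.66, and NDUFAF7, a mitochondrial methyltransferase, was at 0.18 and 0.46 with errors of 0.32 and 0.36. NDUFAF4, NDUFAF5 and NDUFAF6 rested on about 6 to 34 fragments per library, so their relative changes, from -0.55 to 0.38, had counting errors of 0.38 to 0.75.

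**Figure D3:**
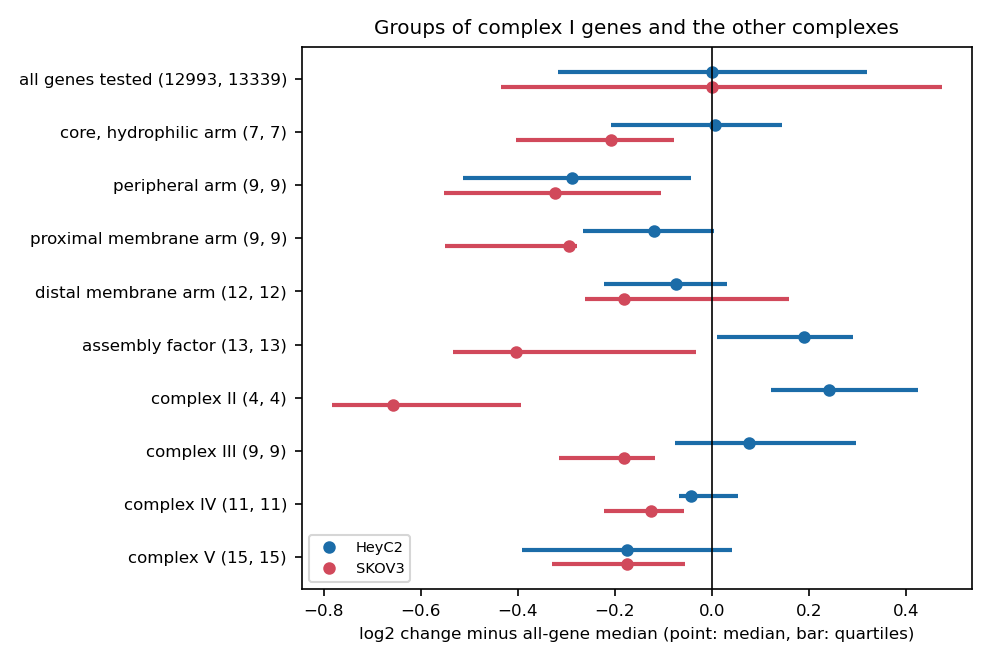
Median (point) and 25th to 75th percentile (bar) of the log2 change minus the all-gene median, for all genes tested, the 5 role groups of complex I and short lists of complexes II to V, HeyC2 in blue and SKOV3 in red, with the numbers of genes in HeyC2 and SKOV3 in brackets. The assembly factors lie at 0.19 in HeyC2 and -0.40 in SKOV3, and the peripheral arm lies below 0 in both lines. Complexes II (0.24 and -0.66) and III (0.08 and -0.18) also lie on opposite sides of 0. Complexes IV and V lie below 0 in both lines.

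Members outside complex I itself were few. NDUFA4, counted today as a subunit of cytochrome oxidase, had 46.79 and 158.58 FPKM in HeyC2 and 26.28 and 46.98 FPKM in SKOV3, and relative changes of 0.13 and 0.23. Its paralog NDUFA4L2 (0.66 and 3.27 FPKM in HeyC2, 0.97 and 0.59 FPKM in SKOV3), known as a hypoxia-induced gene, passed the filter only in HeyC2 and there through the TET1 library, on about 4 and 5 fragments. NDUFA6-AS1 was at 1.09 and 3.53 FPKM in HeyC2 and 2.75 and 6.66 FPKM in SKOV3, with relative changes of -0.49 (1.04) and 0.44 (0.58). NDUFB2-AS1, NDUFV2-AS1 and NDUFAF4P1 did not pass in either line, with at most 0.97 FPKM in any library. Whether counting used strand was not given in the sources used here, so reads of the antisense entries and of NDUFA6, NDUFB2 and NDUFV2 may not be separated, nor reads of NDUFAF4 and its pseudogene NDUFAF4P1.

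The cell lines gave little common pattern across members. Of the 53 members tested in both lines, 23 were below the all-gene median in both (43.4%, against 27.0% of the 11888 genes tested in both) and 7 were above in both (13.2%, against 25.4%). A further 16 were above in HeyC2 and below in SKOV3 (30.2%, against 25.5%), 8 of them assembly factors, and 7 were the reverse (13.2%, against 22%). Taken by line, 57.4% of members lay below in HeyC2 and 73.6% in SKOV3, against 50% of genes. The joint shares follow in part from these and do not by themselves show a link between the lines. As for larger changes, no member was 1.5-fold off the median in both lines in the same direction (0, against 6.31% of genes) or in opposite directions (0, against 4.39%). More than 2 counting errors off in opposite directions were ECSIT, NDUFS8 and NDUFA3, 3 of 53, against 9.51% of 11608 genes. A fit over both lines took the line as block (limma with moderated variances, 1 residual and 6.48 prior degrees of freedom, Benjamini-Hochberg adjustment). In this fit, 0 of 53 members and 0 of 11888 genes had an adjusted p under 0.05. The smallest adjusted p over all genes was 0.126, so the 0 called members do not set complex I apart from other genes. At an unadjusted p under 0.05 there were 0 members and 796 genes (6.7%), and the smallest adjusted p of a member was 0.80, for NDUFA9. Across the 50 complex I genes the relative changes of the lines had a Spearman rho of 0.08, the same as over all 11888 genes.

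**Figure D4:**
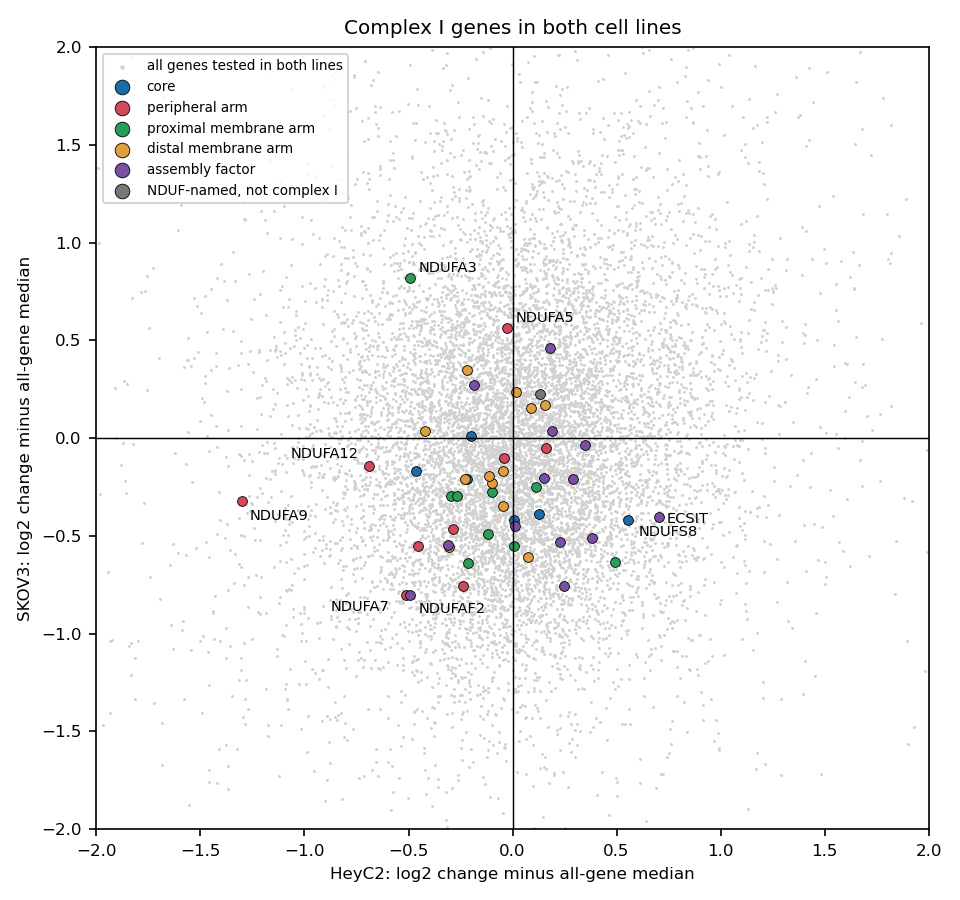
Relative log2 change in HeyC2 (x axis) and SKOV3 (y axis) for all genes tested in both lines (grey, 313 of 11888 outside the axes) and for 49 complex I genes and NDUFA4 by role. The members cluster below the horizontal zero line, with NDUFA3 above it at 0.82 and NDUFA9 far to the left at -1.30.

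The complex I genes also differed between the control libraries, without a common direction. The tables of the lines were made separately, so the differences that follow are relative to the all-gene median, and the FPKM set side by side between lines are descriptions. For the 50 complex I genes, HeyC2 minus SKOV3 had a median of -0.10 and an SD of 0.71 on the log2 scale. Over 12488 genes, not matched for level, the SD was 1.41. Among all 53 members tested here, 13 were at least 1.5-fold higher in HeyC2 control (24.5%, against 29.0% of genes) and 8 at least 1.5-fold lower (15.1%, against 28.6%). The higher ones were led by NDUFA9 (1.43), NDUFS4 (1.31), which had 83.61 against 40.13 FPKM, and NDUFB8 (1.21), which had 134.31 against 69.36 FPKM. The lower ones were led by NDUFC1 (-1.34), with 14.94 against 47.54 FPKM, NDUFAF4 (-1.25), NDUFAF5 (-1.24) and NDUFA6 (-1.23), with 19.62 against 57.14 FPKM. These genes were named after their values were seen.

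Other genes tied to complex I, from a list of further assembly factors and iron-sulfur cluster genes, were measured beside them. Of 13, 7 lay above the all-gene median in HeyC2 (median 0.11) and 10 lay below it in SKOV3 (median -0.45). TMEM186, a further MCIA member, was at 0.54 and -0.67, TMEM70 at 0.48 and -0.96, and C17orf89, the older symbol of NDUFAF8, at -0.14 and -0.64. COA1, linked to the same assembly complex, was above in both lines, at 0.41 and 0.18. The iron-sulfur carrier NFU1 (-0.37 and 0.47) and TMEM261 (-0.43 and 0.17) were below in HeyC2 and above in SKOV3, and AIFM1 (-0.69 and -0.47), BOLA3 (-0.48 and -0.65) and IBA57 (-0.78 and -0.56) were below in both. In short lists of the other complexes, the number below the all-gene median in HeyC2 and SKOV3 was 1 and 3 of 4 for complex II, 3 and 8 of 9 for complex III, 8 and 9 of 11 for complex IV and 10 and 12 of 15 for complex V. With 38 of 50 for complex I, most genes of all 5 lists were below the median in SKOV3. Over 13339 genes of SKOV3 the Spearman rho between level and relative change was -0.29, and over 12993 genes of HeyC2 it was 0.25, against -0.01 and -0.22 across the 50 complex I genes. The part of expression level in the list values was not tested beyond the comparison within levels given above.

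RefSeq promoters, from 250 bases before to 50 after a start, were found for 46 of the 57 members. Their median number of CpG was 24.5 at the richest start of each gene, against 28 over 10594 tested genes and 16 over all 27305 genes with an entry. The 46 include NDUFB2-AS1 and NDUFV2-AS1, which did not pass the filter in either line. A core of the binding sequence of NRF1 (GCATGCG on either strand), a factor known to control respiratory chain genes, was found in 8 of 46 (17.4%), against 7.44% of the tested genes and 4.74% of all 27305 genes with an entry. A core of the YY1 sequence (AGATGGC) was found in 8 of 46 (17.4%, against 9.19% and 6.63%), and CCGGAAG, a sequence bound by ETS factors such as GABP, in 7 of 46 (15.2%, against 21.2% and 12.2%). The motifs were searched separately on both strands of every listed start, so matches may overlap, and a match is a description of the sequence, not a binding site. Across 44 members with a promoter and a change, the Spearman rho between CpG number and relative change was -0.18 in HeyC2 and -0.10 in SKOV3, against 0.08 over 9669 and -0.05 over 9931 tested genes. The members with and without the NRF1 letters had medians of 0.00 and -0.12 in HeyC2 and -0.21 and -0.26 in SKOV3. For the YY1 letters the medians were -0.35 and -0.07 in HeyC2 and -0.18 and -0.26 in SKOV3, and for the ETS letters -0.10 and -0.11 in HeyC2 and -0.42 and -0.21 in SKOV3.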

How the data were processed

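RNA of 4 libraries (HeyC2 and SKOV3, control and TET1) was measured by paired-end sequencing. The authors aligned reads to hg19 with Bowtie2 2.2.6 and made the deposited FPKM with RSEM 1.2.17, per the labels, with annotation and filters not given in the sources used here. The deposited FPKM of the TET1 columns carry the GAPDH scaling, read from the values (100% on the grid below 40 FPKM).

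Log2((TET1 + 1)/(control + 1)) was computed over genes with a mean of at least 1 FPKM in the line, and the median of these genes was subtracted. The filter used the deposited values, by which 12993 genes passed in HeyC2 and 13339 in SKOV3. Before the scaling, 11894 and 13013 genes passed. A member at least 1.5-fold off this median was counted. With 1 library per group no test was made within a line. A fit over both lines (limma 3.58.1) took the line as block. Depth was estimated by scanning for the total that best turned low FPKM into whole fragment numbers, with transcript lengths from GENCODE on GRCh37 (23915 of 26506 symbols matched, 90.2%, older symbols through RefSeq on GRCh38.p14). Fragment numbers and counting errors are approximate, since the lengths the authors used are not given. The smaller of the canonical and the median transcript length was used. On simulated data, 200 of 200 planted changes among 26506 genes were called in each line and the depth was within 0.29%. The planted changes were far above 1.5-fold and only in well expressed genes, with fragment sampling as the only noise. False calls were not counted. The simulated depth used the same transcript lengths as its estimate, so it cannot show errors that come from those lengths.

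The members and lists were chosen with earlier results of these data known. Genes named are the core subunits, NDUFA13, NDUFAF3, members on the short arm of chromosome 12 (GRCh37), the 5 highest and 5 lowest members per line, those 1.5-fold off in both lines (0 members), the 6 factors named in the rule with NDUFAF1, members that did not pass, and the most and least abundant; other members are named after their values were seen. Some items are not reported here by name, though counts and medians include them. Alternatives were pseudocounts, filters, scaling, centring, length and GC correction, thresholds and subsets of members. Calculations used Python 3.11.15, numpy 2.4.6, pandas 2.3.3, scipy 1.17.1 and matplotlib 3.10.9.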

Additional observations from a re-analysis of the deposited data

Results flagged for a closer look

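Of the 50 complex I genes, 3 lay more than 2 counting errors from the all-gene median in opposite directions in the cell lines, a share of 6.0% against 9.51% of all genes. The difference of the relative log2 changes, HeyC2 minus SKOV3, was 1.11 for ECSIT (0.70 and -0.40), 0.97 for NDUFS8 (0.55 and -0.42) and -1.31 for NDUFA3 (-0.49 and 0.82). The differences were not tested, since each condition has 1 library.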

How the results depend on the processing

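The SKOV3 list median (-0.25) stayed below 0 and the HeyC2 list median (-0.07) stayed between -0.19 and -0.05 under all settings except the absence of a filter. Without a filter, genes at 0 FPKM in both libraries enter the all-gene median, and the list medians were 0.89 in HeyC2 and 0.23 in SKOV3, the members below the median were 2 in HeyC2, 17 in SKOV3 and 1 in both lines, those 1.5-fold above were 45 and 10 (39.6% and 25.4% of all genes), those 1.5-fold below were 0 and 1 (42.5% and 3.44%), NDUFA12 in HeyC2 was at 0.30 in place of -0.69, and the control difference between lines was -0.33. With genes centred within 20 expression bins, the complex I list median in SKOV3 was -0.0715. The 1 member 1.5-fold above in HeyC2 became 0 at 2-fold (4.12% of all genes), 6 at 1.2-fold (28.7%) and 0 after length and GC correction (12.1%), and with a pseudocount of 0.01 the 1 member was NDUFAF6, not ECSIT. The 2 below became 1 at 2-fold (4.63%), 15 at 1.2-fold (28.6%), 7 with a pseudocount of 0.1 (12.6%), 7 with 0.01 (12.7%), 6 before the GAPDH scaling (9.17%), 7 as TPM (11%), 5 within expression bins (10.6%), 4 after length and GC correction (12.8%) and 1 without the short arm of chromosome 12. In SKOV3 the 1 member above became 0 at 2-fold (9.96%), 6 at 1.2-fold (34.8%), 3 with a pseudocount of 0.1 (25%), 3 with 0.01 (25.4%), and 2 each with a minimum of 5 FPKM (19.3%), as TPM (23.6%) and after length and GC correction (20.3%). The 8 below became 1 at 2-fold (6.77%), 26 at 1.2-fold (34.2%), 13 with a pseudocount of 0.1 (20.6%), with 0.01 (20.8%) and as TPM (20.2%), and 5 with a minimum of 5 FPKM (16.7%). Within expression bins they were 6 (16.8%), of which FOXRED1, NDUFAF2 and NDUFC2-KCTD14 were among the 8, while NDUFA7, NDUFB7, NDUFC2, NDUFS4 and NDUFS5 were not called. The others of the 6 were the assembly factors NDUFAF4, NDUFAF5 and NDUFAF6, on about 17 to 34 fragments per SKOV3 library. The cause of these differences was not tested.

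Leaving out the setting without a filter, the assembly factors stayed between 0.13 and 0.19 in HeyC2 and between -0.47 and -0.31 in SKOV3, and the distal arm in SKOV3 ranged from -0.24 to 0.09. After length and GC correction the proximal arm in SKOV3 (-0.35) was lower than the peripheral arm (-0.32). The setting with only the 50 complex I genes and the fit over both lines, with the line as block, were added after the data were seen. The fit called 0 members and also 0 of 11888 genes. No paired analysis was possible within a line because each condition has 1 library. Depth limits genes of few fragments, and the depth itself is an estimate.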
